A study of Mus musculus with 13 samples.

Results

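The 9 genes described here encode the JAK kinases Jak1, Jak2 and Tyk2, the transcription factors Stat3 and Stat6, and the feedback inhibitors Socs1, Socs2, Socs3 and Cish. They were chosen by symbol from a list of JAK, STAT and SOCS genes that leaves out Jak3 and several STATs, and all 9 are among the 15213 genes of the deposited expression table. Cytokine receptors lack a kinase of their own and rely on bound JAKs, which phosphorylate the receptor and then a STAT protein, and the phosphorylated STAT dimer moves to the nucleus and binds DNA. The SOCS genes, including Cish, are themselves switched on by STATs, and their proteins bind receptors or JAKs and dampen the signal. In the mammary gland, prolactin acts through JAK2 and STAT5 to drive milk protein genes and Cish, whereas STAT3 is activated by LIF when milk production stops and induces Socs3. RNA sequencing measures transcript levels only and does not show whether a JAK or STAT protein is phosphorylated.

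RNA of 10 mammary tumors was sequenced, taken from 6 females with both MMTV-tTA and TetO-Tsg101 (genotype MtTA Teto-TSG101wt in the labels), beside RNA of 3 normal glands, each from another wild-type FVB female. Per the study's methods, the transgenes were also kept on an FVB/N background. In the tumor-bearing females, the mouse mammary tumor virus promoter drives the tetracycline transactivator tTA, which without doxycycline switches on HA-tagged TSG101 together with luciferase. This promoter is active in part of the luminal epithelium, so not every cell of a tumor sample need carry active transgene. The 3 glands carry neither transgene, no gland of a transgenic female was sequenced, and the age and the reproductive stage of the sampled animals are not given in the labels. Tumors 1, 4 and 7 each came from a female of their own, tumors 2 and 3 came from the same female, as did tumors 5 and 6, and tumors 8, 9 and 10 came from another. Tumors of the same female are not independent, and the p-values below measure the spread between these libraries.

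Tumor libraries held 6176269 to 16835397 reads and gland libraries 11672487 to 23889042, so that 3 reads, the limit which a count of 0 allows, amounted to at most 0.683 normalized cpm (read counts scaled by the effective size of the library). Reads of the ribosomal RNA precursor Rn45s took 27.4% of tumor 9 and at most 9.32% of any other library. Tumor 9 was the lowest tumor for 6 and the highest for 2 of the 9 genes, and it was the lowest or highest tumor for 49.1% of the 11795 genes tested. The targeted gene Tsg101 ranged from 49.9 to 101 normalized cpm over the tumors (median 63.4) and from 45.6 to 61.0 over the glands. Only 6 of the 10 tumors were above all glands for Tsg101, and its log2 fold change of 0.30 (SE 0.20) did not pass the test (adjusted p = 0.296, limma). Epithelial markers were present in both tissues, with a summed level of the 10 genes of 2084 to 3120 normalized cpm per tumor and 1293 to 2869 per gland. Markers of other cells differed between the tissues, and their values are given beside the results. The labels name 2 sequencing sites without saying which libraries were made where, so a site and the tissue cannot be told apart here.

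DNA sequence at 2 of the genes is shown first, because Cish and Socs3 gave the largest changes and STAT dimers are known to bind the palindrome TTCNNNGAA. The motif, which reads the same on both strands, was searched in windows of 300 bases from 250 bases before to 50 after the transcription start (RefSeq, GRCm38.p6). Entries were matched for 8 of the 9 genes, with no entry for Socs2. Capitals mark the motif in the following stretches of 30 bases, each written 5′ to 3′ along its gene.
Socs3, chr11:117969501-117969530, minus strand: gaaaccagccTTCTTAGAAgggaggggggg
Cish, chr9:107296654-107296683, plus strand: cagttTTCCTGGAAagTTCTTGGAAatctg
Socs3 held 1 motif, at positions -154 to -146 from the start of its promoter entry, and Cish held 2, at positions 1 to 9 and 12 to 20. The start used for Socs3 lies inside the annotated span of the gene given below, which begins farther upstream, so the printed stretch of Socs3 lies within that span. No motif was found in the windows of Jak1, Jak2, Tyk2, Stat3, Stat6 and Socs1. Over all 32851 RefSeq promoter windows 8.30% held at least 1 such motif and 0.457% held 2 or more, and over the 14803 windows of genes in the expression table these shares were 6.98% and 0.419%. The same palindrome with a spacer of 4 bases instead of 3, which STAT6 is known to prefer, was found in none of the 8 windows and in 6.95% of all windows (5.47% for genes in the expression table). These matches describe letters in a window and do not show binding.

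Compared with the glands, the tumors held more Socs3 RNA and less Cish and Socs2 RNA, whereas the kinases and STAT genes differed less. A change of more than 2-fold with a false discovery rate (FDR, Benjamini-Hochberg over all genes tested) below 0.05 was called significantly deregulated, the limits that the study's methods state. By this limit Socs3 was higher, Cish and Socs2 were lower, and the other 6 genes were not called. Thus 3 of the 9 genes were called, against 17.2% of all genes tested (10.2% higher and 6.99% lower). With the FDR alone Jak1 was also lower, which made 4 of 9, against 27.8% of all genes tested (14.8% higher and 13% lower). Socs1 did not reach more than 5 normalized cpm in the majority of the libraries, which left 8 of the 9 genes in the main fit, and its values come from the same fit without that filter, in which 20.6% of the 15213 genes were called and 31.3% passed the FDR alone. The plot of the values by library shows all 9 genes.

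**Figure D1:**
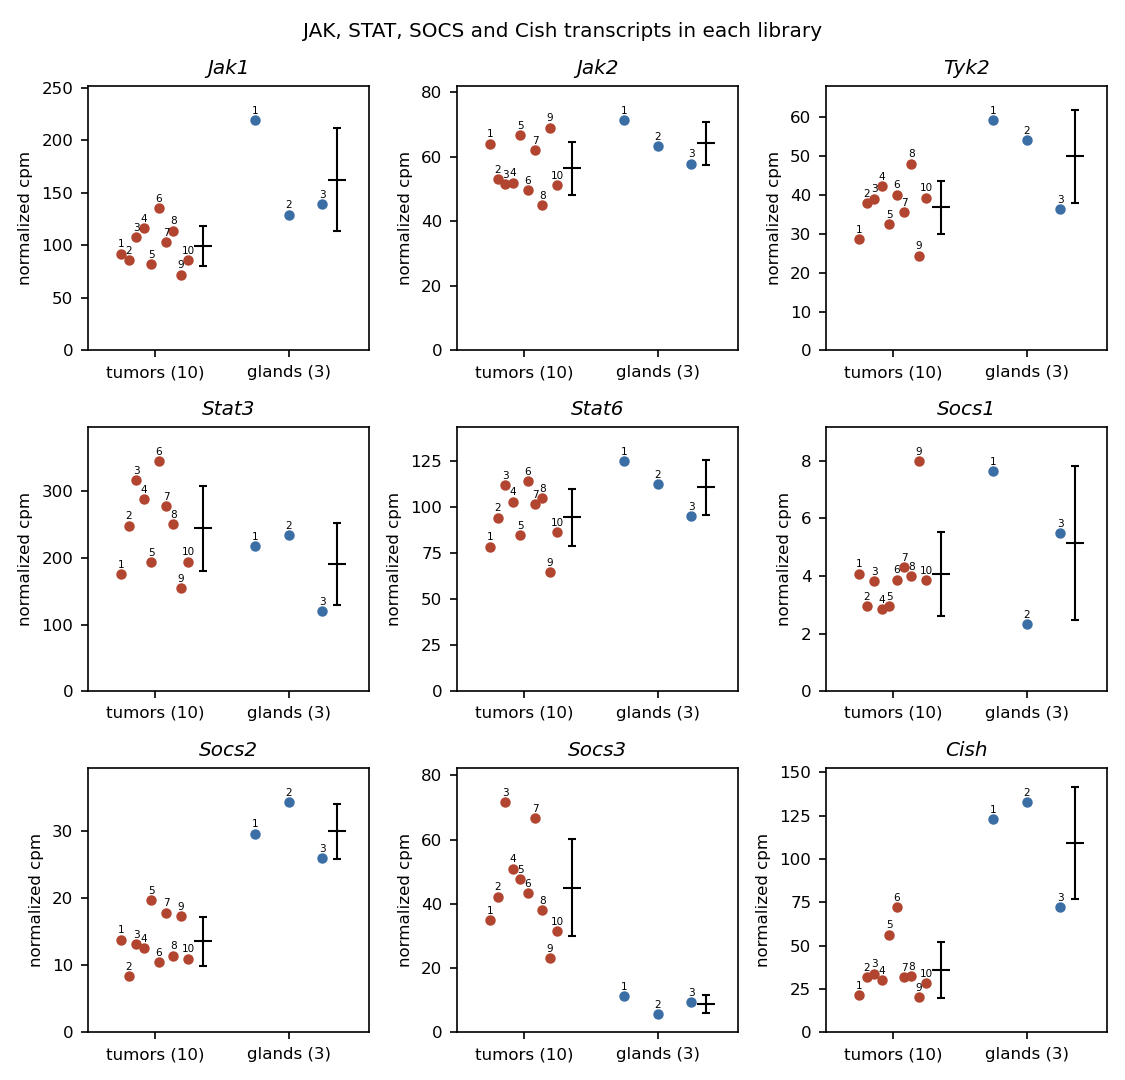
Normalized cpm (linear axis from 0) of the 9 genes in each of the 10 tumors (red) and 3 glands (blue), 1 panel a gene and 1 numbered point a library, with bars for the group mean ± SD. Socs3 sits between 23.2 and 71.6 in the tumors and no higher than 11.2 in the glands, while Socs2 lies below all glands in all 10 tumors and Cish in 9 of them.

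Socs3 (chromosome 11, 117966079 to 117970336, GRCm38.p6) encodes the inhibitor that binds the shared receptor chain gp130 and blocks STAT3 activation by cytokines of the IL-6 family. Its level in the glands was 11.2, 5.73 and 9.51 normalized cpm, and in the tumors it ran from 23.2 (tumor 9) through a median of 42.9 to 71.6 (tumor 3). All 10 tumors were above all 3 glands, a separation in this direction that 10.7% of all genes tested showed. Socs3 rose 4.61-fold, with a log2 fold change of 2.20 (SE 0.29, 95% interval 1.59 to 2.82, adjusted p = 5.41e-05, limma). Mean levels by female ranged from 31.0 normalized cpm in the mouse of tumors 8, 9 and 10 to 66.8 in that of tumor 7, so every tumor-bearing female was above every gland. Socs3 was the only gene of the 9 that stayed called in each of the 27 alternative settings.

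Some neutrophil markers and most squamous markers rose together with Socs3, and their part in the result was not tested. In bulk tissue, a change in the number of cells of a type and a change in RNA per cell cannot be told apart. Of the 6 neutrophil markers, 5 were listed and 3 rose, and their summed level was 302 to 3939 normalized cpm per tumor against 3.92 to 49.3 per gland. Most of that sum was S100a8 (mean 869 normalized cpm in the tumors and 8.50 in the glands) and S100a9 (427 and 6.57), which squamous epithelium is also known to express. Csf3r rose from 3.43 to 19.7 normalized cpm, whereas Cxcr2 (3.38 in the tumors and 2.49 in the glands, adjusted p = 0.669) and Retnlg (1.28 and 0.359, adjusted p = 0.122) did not pass the test (limma without the filter). No neutrophil marker was at 0 in all libraries of a group. The tumors with the highest Socs3, tumors 3 and 7, had summed neutrophil markers of 936 and 3939 normalized cpm, and tumor 9 with the lowest Socs3 had 2561. Of the 7 macrophage markers, 1 rose (Cd68) and none fell, with sums of 278 to 556 normalized cpm in the tumors and 252 to 269 in the glands. Squamous markers rose for 7 of 8 genes in the fit without the filter and summed to 421 to 2769 normalized cpm per tumor against 16.8 to 41.4 per gland, and 2 of them were at 0 in all glands.

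Cish (chromosome 9, 107296659 to 107302784) encodes the founding SOCS protein, a target of STAT5 downstream of prolactin, growth hormone and erythropoietin receptors. It was at 123, 133 and 72.2 normalized cpm in the glands. In the tumors it ran from 20.3 (tumor 9) through a median of 31.9 to 72.3 (tumor 6), so that 9 of 10 tumors were below all glands and tumor 6 was level with gland 3. Cish fell 3.10-fold, with a log2 fold change of -1.63 (SE 0.32, 95% interval -2.33 to -0.94, adjusted p = 0.00159, limma). The 2 highest tumors, 5 and 6 at 56.4 and 72.3 normalized cpm, came from the same female, and the means of the other females lay between 21.4 and 32.8. Without that female, an alternative added after the values were seen, the log2 fold change of Cish was -1.86. Exons of Cish overlap the annotated Gm17040 and Gm17041 on the opposite strand, and the sources used here do not give the strand setting of featureCounts.

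Socs2 (chromosome 10, 95383903 to 95417321) encodes an inhibitor of growth hormone receptor signaling that STAT5 is also known to induce. Its level was 29.6, 34.2 and 26.0 normalized cpm in the glands. The tumors ran from 8.39 (tumor 2) through a median of 12.8 to 19.7 (tumor 5). No tumor overlapped the glands, and all 10 were lower, as was the case for 8.53% of all genes tested. The log2 fold change was -1.12 (SE 0.22, 95% interval -1.59 to -0.65, adjusted p = 0.00156, limma), a 2.17-fold fall. Because this fall was close to 2-fold, its call was lost with a pseudocount of 5 (-0.93) and with plain library sizes (-0.81), where the FDR was still passed.

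Markers of milk-producing cells and of fat fell alongside Cish and Socs2, and their part in these results was not tested. All 7 milk genes fell, and their summed level was 165034 to 305121 normalized cpm in the glands against 1384 to 76623 in the tumors. With tumors of the same female treated as correlated, the milk genes Glycam1 and Wap were not called (adjusted p = 0.0951 and 0.117, limma). Tumors 5 and 6, which had the highest Cish, also had the highest milk sums of the tumors, 40854 and 76623 normalized cpm, whereas tumor 9 had the lowest of both. All 9 fat cell markers fell in the fit without the filter, from sums of 4230 to 11396 normalized cpm in the glands to 93.5 to 511 in the tumors. Of the 6 endothelial markers 5 fell, with sums of 186 to 519 normalized cpm in the glands and 44.0 to 111 in the tumors. Lymphocyte markers fell for 6 of 8 genes without the filter, with sums of 8.15 to 94.4 normalized cpm in the tumors and 18.1 to 423 in the glands. Fibroblast markers fell for 3 of 6 genes (269 to 849 normalized cpm in the tumors, 1369 to 2239 in the glands). Of the 7 basal epithelial markers 4 rose and 3 fell, and none of the 5 skeletal muscle markers was called, although their sum in the tumors ranged from 10.6 to 1771 normalized cpm.

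Socs1 encodes the inhibitor that binds JAKs directly and restrains interferon signaling. Its level was 7.62, 2.32 and 5.49 normalized cpm in the glands and between 2.86 (tumor 4) and 7.97 (tumor 9) in the tumors, with a median of 3.86. The groups overlapped in 9 of 10 tumors. Its log2 fold change of -0.21 (SE 0.28, 95% interval -0.82 to 0.39, adjusted p = 0.606, limma without the filter) did not pass the test, and its sign turned with plain library sizes (0.043) and without gland 1 (0.084).

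Among the kinases, Jak1, which serves gp130, interferon and common gamma chain receptors, differed most. It was at 219, 129 and 139 normalized cpm in the glands and ran from 72.2 (tumor 9) through a median of 97.8 to 135 (tumor 6). Of the 10 tumors 9 were below all glands and 1 lay within their range. Jak1 was 1.61-fold lower (log2 fold change -0.68, SE 0.21, adjusted p = 0.0218, limma), which passed the FDR but not the 2-fold limit. The adjusted p (limma) was 0.194 without gland 1, the highest gland (log2 fold change -0.45), and 0.0541 without the female of tumors 8, 9 and 10 (-0.63). With plain library sizes, a scaling that moved the median of all genes to 0.33, it was 0.4002 (-0.36).

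Jak2, the kinase of the prolactin, growth hormone and erythropoietin receptors, was at 71.2, 63.2 and 57.8 normalized cpm in the glands and 45.0 to 69.0 over the tumors (median 52.4). Its log2 fold change of -0.19 (95% interval -0.52 to 0.14, adjusted p = 0.397, limma) did not pass the test, and 4 tumors lay within the gland range. Leaving out 1 gland gave Jak2 values between -0.26 and -0.11, the latter without gland 1. Tyk2, which serves interferon and IL-12 family receptors, was at 59.1, 54.1 and 36.3 normalized cpm in the glands and 24.4 to 48.0 over the tumors (median 38.4). The groups overlapped in 6 tumors, and the log2 fold change of -0.42 (95% interval -0.85 to 0.00, adjusted p = 0.132, limma) did not pass the test, but the FDR was passed without gland 3, the lowest gland (-0.63, adjusted p = 0.0352). Exons of Tyk2 share 554 bases with the antisense gene 1700084C06Rik, so its reads are uncertain to that extent.

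Stat3, which carries signals of the IL-6 family, was at 218, 234 and 121 normalized cpm in the glands and ran from 154 (tumor 9) through a median of 249.98 to 345 (tumor 6) in the tumors. Although 6 tumors were above all glands, the log2 fold change of 0.37 (SE 0.27, 95% interval -0.20 to 0.94, adjusted p = 0.338, limma) did not pass the test, and gland 3 alone was below every tumor. Without gland 3 the value was 0.069, and scaling to epithelial genes turned it to -0.26. Stat6, the transcription factor of IL-4 and IL-13, was at 125, 113 and 95.3 normalized cpm in the glands and between 64.9 and 114 in the tumors (median 98.1). For Stat6 the groups overlapped, with 5 tumors below all glands and 5 within their range, and its log2 fold change of -0.24 (95% interval -0.61 to 0.14, adjusted p = 0.348, limma) did not pass the test (-0.15 without gland 1).

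**Figure D2:**
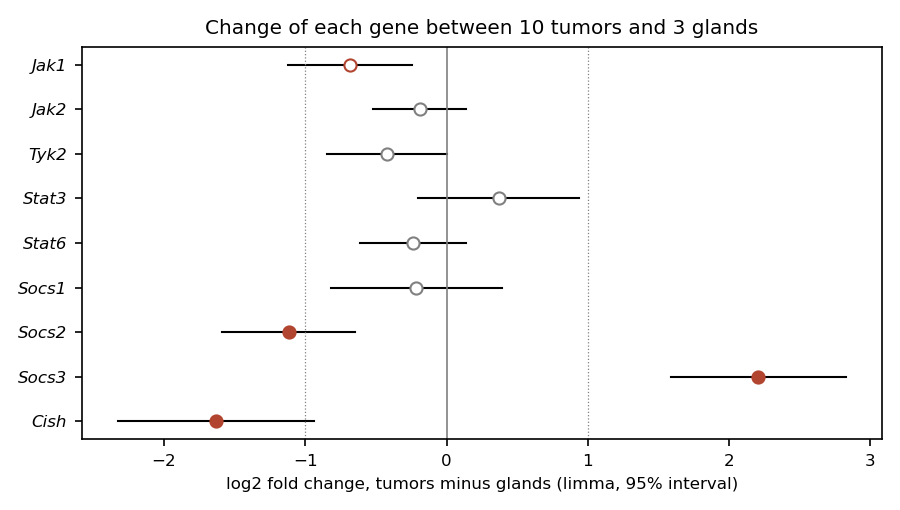
Log2 fold change of each gene, tumors minus glands, with its 95% interval (limma). Filled red points passed both limits (Socs3 at 2.20, Cish at -1.63 and Socs2 at -1.12), the open red point (Jak1, at -0.68) passed the FDR alone, open gray points passed neither, and dotted lines mark 2-fold. The signs of Jak2, Stat6 and Socs1 turned with plain library sizes, that of Socs1 also without gland 1, and that of Stat3 after scaling to epithelial genes. Both scalings also moved the median of all genes.

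The scaling of the libraries moved all genes together. With plain library sizes the median over all tested genes lay at a log2 fold change of 0.33, and after scaling to epithelial genes it was -0.59, against 0.01 in the main fit. Relative to that median, Socs3 was at 2.19 in the main fit and at 2.18 and 2.20 under these scalings. Cish was at -1.65, -1.64 and -1.66, Socs2 at -1.13 in all 3, and Stat3 at 0.35, 0.37 and 0.33. Jak1 was at -0.70, -0.69 and -0.72, Jak2 at -0.20, -0.19 and -0.22, and Tyk2 at -0.44, -0.43 and -0.45. Stat6 was at -0.25, -0.24 and -0.27 and Socs1 at -0.23, -0.28 and -0.16. Each scaling multiplies all genes of a library by the same factor, so apart from the pseudocount these values had to stay nearly the same. Their likeness is therefore no test of the changes or of their signs.

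Ratios between pairs of genes within a library depend little on its scaling. They were taken as differences of log2(normalized cpm + 1), so the pseudocount of 1 enters them, most of all for low genes such as Socs1. For 6 such pairs, the difference in mean log2 ratio between tumors and glands was tested with a two-sided exact permutation test over 286 splits, with a smallest possible p of 0.0035 and Benjamini-Hochberg adjustment over the 6. The ratio of Socs3 to Stat3, inhibitor to transcription factor, was -2.44 ± 0.31 (SD, n = 10) for tumors and -4.28 ± 0.80 (SD, n = 3) for glands, both as log2. It was higher by 1.84 in the tumors (adjusted p = 0.00699, exact permutation test), with 10 of 10 tumors above all glands. The ratio of Socs1 to Socs3 was lower by 2.42 on the log2 scale, with 10 of 10 tumors below all glands (adjusted p = 0.00699, exact permutation test). Stat6 to Stat3 was -1.34 ± 0.16 in the tumors and -0.73 ± 0.36 in the glands, a difference of -0.61 with 10 of 10 tumors below all glands (adjusted p = 0.00699, exact permutation test). With a pseudocount of 5 these differences were 1.46 for Socs3 to Stat3, -1.96 for Socs1 to Socs3 and -0.59 for Stat6 to Stat3, each with the same adjusted p (exact permutation test). When tumors of the same female were averaged, Stat6 to Stat3 differed by -0.62 (adjusted p = 0.0238, exact permutation test). Without gland 3 it differed by -0.41 and without gland 2 by -0.77 (adjusted p = 0.0303 and 0.0227, exact permutation test). So the relation of the transcription factors differed between the tissues, although neither gene passed its own test.

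The remaining 3 ratios did not pass. Cish to Socs2 differed by -0.51 (adjusted p = 0.248, exact permutation test), with 7 of 10 tumors below all glands and 1 above. Jak2 to Jak1 differed by 0.49 (adjusted p = 0.157, exact permutation test) and passed when tumors of the same female were averaged (0.49, adjusted p = 0.0357). Tyk2 to Jak1 differed by 0.26 (adjusted p = 0.168, exact permutation test) and passed only without gland 2 (0.48, adjusted p = 0.0227).

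**Figure D3:**
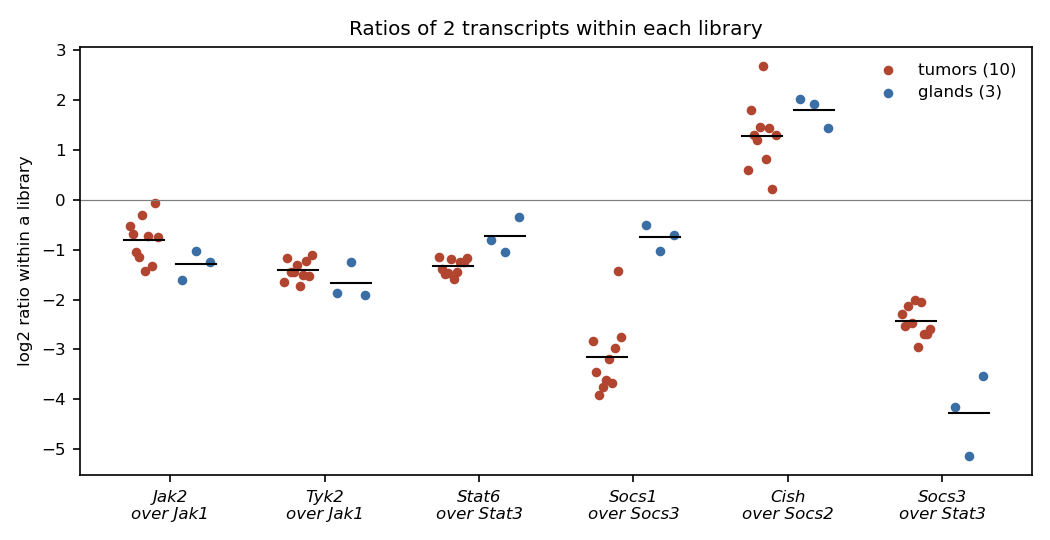
Log2 ratio of 6 pairs of genes in each of the 10 tumors (red) and 3 glands (blue), with lines for the group means. For Socs3 to Stat3 the tumors lie above all glands, for Socs1 to Socs3 and Stat6 to Stat3 they lie below, and the other 3 pairs overlap.

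To compare the genes with each other, levels were divided by the length in kilobases of the exons of GENCODE transcripts matched to RefSeq, within the RefSeq span of the gene (GRCm38.p6). These lengths ran from 1340 bases for Socs1 to 5030 for Jak2, with 2552 for Socs3 and 3014 for Cish. In the tumors the order was Stat3 (54.1 ± 14.1 normalized cpm per kb, SD, n = 10), Stat6 (25.1 ± 4.15), Jak1 (20.3 ± 3.93), Socs3 (17.7 ± 5.89), Cish (11.9 ± 5.35), Jak2 (11.2 ± 1.64), Tyk2 (7.59 ± 1.41), Socs2 (5.03 ± 1.35) and Socs1 (3.04 ± 1.09). The ranges of mean ± SD overlapped between neighbors in this order except for Stat3 and Stat6 and for Jak2 and Tyk2. In the glands Stat3 (42.2 ± 13.6 normalized cpm per kb, SD, n = 3) came first, followed by Cish (36.3 ± 10.8), Jak1 (33.1 ± 10.02), Stat6 (29.4 ± 3.95), Jak2 (12.7 ± 1.34), Socs2 (11.1 ± 1.54), Tyk2 (10.3 ± 2.47), Socs1 (3.84 ± 1.99) and Socs3 (3.46 ± 1.10). Here only Stat6 and Jak2, and Tyk2 and Socs1, had ranges that did not overlap.

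The order depends on which exons are counted, and the annotation used for the deposited counts is not given in the sources used here. With the exons of all GENCODE transcripts, a choice added after the values were seen, the length of Cish was 6419 bases, that of Socs2 9531 and that of Socs1 2908. Socs3 was then at rank 3 in the tumors and rank 8 in the glands, against ranks 4 and 9 with the exons matched to RefSeq, and Cish at ranks 6 and 4, against 5 and 2. Stat3 stayed first in the tumors but was then at rank 3 in the glands, behind Stat6 and Jak1. Under both lengths Socs3 stood higher in the order of the tumors than in that of the glands, and Cish lower.

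The makeup of Socs1, Socs2, Socs3 and Cish transcripts differed between the tissues. Summed per kb of the exons matched to RefSeq, the 4 genes reached 28.2 to 47.8 normalized cpm per kb in the tumors (median 34.9) and 41.4 to 61.9 in the glands. Socs3 held between 32.3% and 59.7% of that sum in the tumors (median 46.3%) and between 3.70% and 9.002% in the glands. Cish held between 22.8% and 50.2% in the tumors (median 29.9%) and between 57.9% and 72.5% in the glands. Cish was thus the leading transcript of the 4 in each gland, and Socs3 was so in 8 of the 10 tumors, all but tumors 5 and 6 of the same female. Socs2 held 8.13% to 22.8% in the tumors and 17.7% to 23.3% in the glands, and Socs1 held 4.71% to 21.1% and 2.86% to 9.89%. With the exons of all GENCODE transcripts Socs3 led in 10 of the 10 tumors, at 51.0% to 75.7%, against 7.33% to 17.2% in the glands, so that its share rests on the lengths but lay above all glands in each tumor under both.

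**Figure D4:**
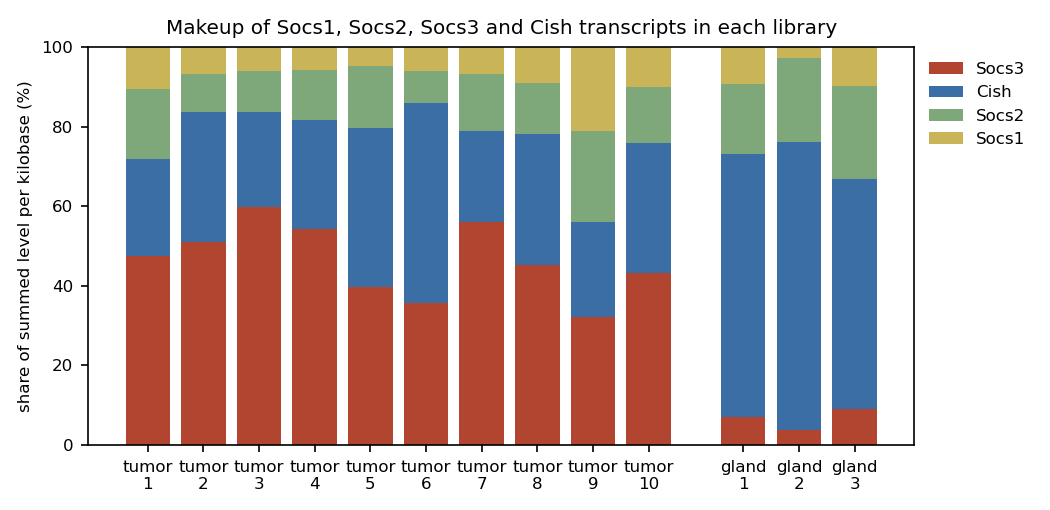
Share (percent) of Socs1, Socs2, Socs3 and Cish in their summed level per kb of the exons matched to RefSeq, 1 bar a library. Socs3 takes 32.3% or more in each tumor and 9.002% or less in each gland, where Cish takes 57.9% or more.

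Over the 10 tumors, the genes whose log2 levels ran most like those of the called genes were listed as a description, among 11794 others and with no test. For Socs3 they were Spi1, the transcription factor of myeloid cells (Pearson r 0.97), Prkx (0.97) and Pld2 (0.96). For Cish they were Sowahb (0.94), Arid5a (0.93) and Ap2m1 (0.92), and for Socs2 they were Arnt (0.91), Tmem45a (0.87) and Sgk3 (0.85). The 10 points share 6 females and differ in depth and in Rn45s share.

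The rest of the pathway was described with lists, and counts are given beside the background of 10.2% higher and 6.99% lower with the filter, or 10.5% and 10.1% without it. Of 37 cytokine ligands 15 were listed and 3 passed the filter, and of these Lif alone was called. Lif, the ligand that activates STAT3 through gp130, was at 10.3 ± 5.16 normalized cpm (SD, 10 tumors) against 1.52 ± 0.27 (SD, 3 glands), with a log2 fold change of 2.04 (SE 0.38, adjusted p = 9.32e-04, limma). Without the filter 5 ligands rose and 1 fell. After Lif the largest of these rises was that of Il23a (1.59), and the fall was that of the fat cell hormone gene Lep (-4.96), which was at 3.24 normalized cpm or less in all tumors and at 23.5 or more in the glands.

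Of 43 cytokine receptors 37 were listed and 27 passed the filter, with 5 higher and 5 lower. Cntfr, a receptor that signals with gp130, rose from 1.10 ± 0.91 normalized cpm in the glands to 104 ± 62.1 in the tumors (log2 fold change 5.44, adjusted p = 6.79e-06, limma). Il13ra1, the IL-13 binding chain, rose from 18.3 ± 9.81 to 188 ± 91.3 normalized cpm (3.27, adjusted p = 2.63e-05, limma). Il2rg, the common gamma chain (-2.22), fell most among receptors past the filter, followed by Il21r (-1.81), and both serve lymphoid cells. Without gland 1 the value of Il21r was -1.38 (adjusted p = 0.0786, limma). Il21r was at 43.1 and 44.6 normalized cpm in glands 1 and 3 but at 6.09 in gland 2, within the tumor range of 3.87 to 11.2, and its log2 fold change was -2.70 without gland 2. Summed lymphocyte markers were 423 and 410 normalized cpm in glands 1 and 3 and 18.1 in gland 2, and their part in this result was not tested. Named after their values were seen, Osmr (1.96), Csf3r (1.99) and Il20rb (1.70) also rose, whereas gp130 itself, Il6st (-1.52), Ifngr1 (-1.17) and Ghr (-1.34) fell. Without the filter 6 receptors were higher and 9 lower, and of those the filter leaves out, also named after their values were seen, Il2rb (-2.59), the IL-6 receptor gene Il6ra (-2.58), Il27ra (-2.53) and Epor (-2.12) fell and Il22ra1 (1.27) rose. The median log2 fold change of the listed receptors was -0.39, against 0.01 over all listed genes.

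A list of Jak3, Stat2, Stat4, Stat5a and Stat5b held none that rose, and 1 of the 4 past the filter fell. Stat5a, which mediates prolactin signaling, was at 133 ± 52.1 in the tumors and 260 ± 81.3 in the glands (-1.03, adjusted p = 0.0468, limma), and kept its call in 12 of 27 alternatives, with values without gland 1 or gland 2 of -0.96 and -0.82 (adjusted p = 0.162 and 0.218). Leaving out any of tumors 1, 2, 3, 4, 5, 7 or 9 also ended the call of Stat5a, at values of -1.06 to -0.91, as did treating tumors of a female as correlated (-0.99, adjusted p = 0.100, limma). Stat4, the transcription factor of IL-12, was at 1.79 normalized cpm or less in all tumors and between 0.981 and 9.68 in the glands. It was called lower in the fit without the filter (-1.36, adjusted p = 0.0143, limma), but not without gland 1 (-0.83, adjusted p = 0.150) or gland 3 (-1.19, adjusted p = 0.0567). Without gland 2, where Stat4 was at 0.981 normalized cpm and within the tumor range, its log2 fold change was -2.05. The Stat5a paralog Stat5b fell by 0.99 on the log2 scale, just under the 2-fold limit (adjusted p = 0.00532, limma). Of the 14 other inhibitors Socs5 alone was called. Socs5, a SOCS gene that is not among the 9, rose from 27.5 ± 7.97 to 74.2 ± 14.1 normalized cpm (1.42, adjusted p = 9.43e-05, limma).

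Genes that are known targets of individual STATs were listed from general knowledge, with earlier results of these data known. Their counts do not show which factor acts on them. Of 16 STAT3 targets 9 rose and 1 fell, with a median log2 fold change of 1.07. Saa3, an acute phase gene (4.76), and Fos (3.06) rose most, and Pim1 fell (-1.19). Pim1 encodes a kinase that STAT5 also induces. All 9 STAT5 targets of the gland fell, with a median of -3.51, led by Glycam1 (-8.35) and Wap (-6.98), but with tumors of the same female treated as correlated these 2 had adjusted p = 0.0951 and 0.117. Of 9 STAT6 targets 8 were listed, and Arg1 rose (4.95) whereas Ccl22 (-2.62) and Clec10a (-1.24) fell in the fit without the filter. Clec10a had adjusted p = 0.0505 with the filter (limma) and was called in 12 of 27 alternatives. Ccl22, which does not pass the filter, was at 46.9 and 29.7 normalized cpm in glands 1 and 3 and at 2.07 in gland 2, within the tumor range of 0.228 to 5.003. Its log2 fold change was -1.85 without gland 1 (adjusted p = 0.0831, limma) and -3.83 without gland 2, the gland with few lymphocyte markers. The milk genes, the fat cell gene Lep, the neutrophil gene Csf3r and the macrophage gene Mrc1 stand in the pathway lists as well as in the marker lists above. The pathway lists also share genes with each other. Osmr is both a listed receptor and a listed STAT3 target, and Il4ra is listed with the receptors, the STAT3 targets and the STAT6 targets.

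**Figure D5:**
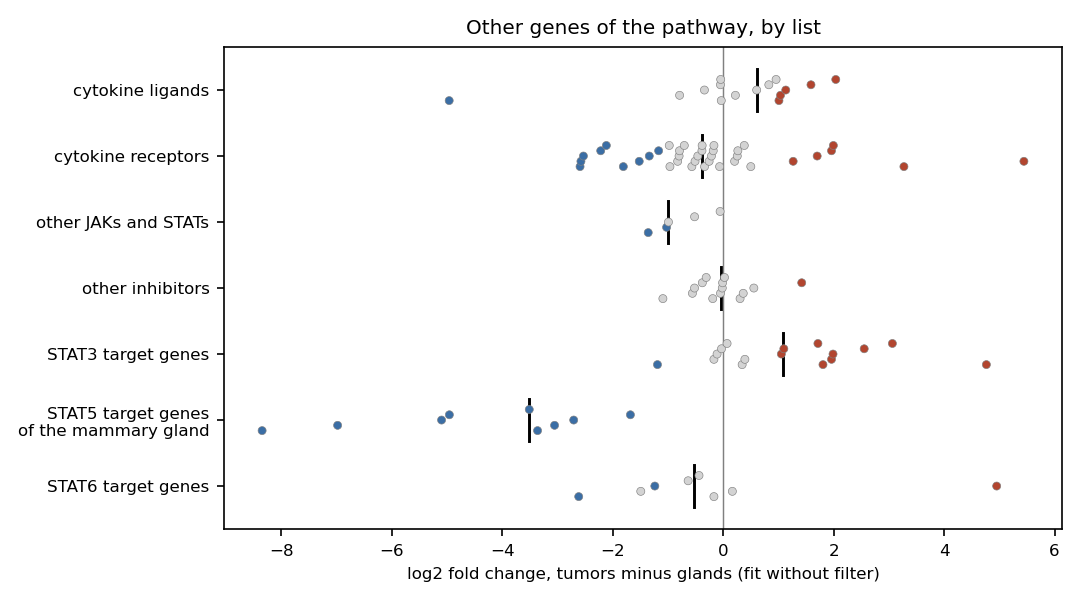
Log2 fold change (tumors minus glands, fit without the filter) of each listed gene of the 7 pathway lists, 1 point a gene, with a black line at the median of the list and with called genes in red (higher) or blue (lower). The medians run from -3.51 for the STAT5 targets of the gland to 1.07 for the STAT3 targets, beside 0.01 over all listed genes.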

How the data were processed

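Total RNA from 10 mammary tumors and 3 mammary glands was sequenced. Per the labels and the methods, the authors aligned the read pairs to mm10, used featureCounts for the counts of genes and applied edgeR's normalization. The deposited signal values are such counts after division by the effective size of the library, here called normalized cpm. Dividing by the value of 1 read gave whole numbers for 100% of the values of a library (tolerance 0.01 reads), so that read counts could be recovered. The deposited table holds no comparison columns, and 0 sample columns were left unused. Neither the strand setting nor the filter applied to the table is given in the sources used here.

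Genes that did not exceed 5 normalized cpm in most libraries were left out (3418 of 15213), and 11795 were tested with limma 3.58.1 in R 4.3.3 on log2(normalized cpm + 1), with a variance trend, all 13 libraries and no covariate. Fold changes are on that scale, which understates changes of low genes. Significance required an FDR below 0.05 and more than 2-fold. Levels are mean ± SD, and intervals cover 95%. Floors of 3 reads cover counting error only. The scripts were tested on simulated data. Alternatives were other pseudocounts, filters and scalings, edgeR 4.0.16, DESeq2 1.42.0, tumors of a mouse correlated or averaged, libraries or mice left out, and a replicate block. The test by edgeR on the recovered reads called 1143 genes higher and 918 lower, against 1204 and 825 in limma.

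The 9 genes and all lists were chosen with earlier results of these data known. Named from each pathway list were the 2 largest rises and the 2 largest falls among genes called with the filter (without it where fewer remained), and for each called member the 3 genes with the highest Pearson r. Pathway lists held ligands, receptors, other JAKs and STATs, other inhibitors, and targets of STAT3, STAT5 and STAT6. Some genes of these lists are not reported here. Marker lists held epithelial, basal epithelial, squamous, milk, adipocyte, lymphocyte, macrophage, neutrophil, endothelial, fibroblast and skeletal muscle genes.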

Additional observations from a re-analysis of the deposited data

Results flagged for a closer look

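Among 15 groups of tumor values checked, 2 held a tumor set apart from the others by a Dixon gap beyond the limit for 10 samples. Chance flags about 1 in 20 groups. Socs1 was at 7.97 normalized cpm in tumor 9 and at 4.30 or less in the other tumors. The log2 ratio of Socs1 to Socs3 was -1.43 in tumor 9 and -2.75 or lower in the others. The same library had the highest Rn45s share, 27.4%, and its part in both values was not tested.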

How the results depend on the processing

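Values are log2 fold changes unless named. Across 27 alternatives Socs3 kept its call in 27, Cish in 26 and Socs2 in 24. A pseudocount of 5 took Socs2 to -0.93 and left 1 gene of the 9 called lower. Without the filter, or with a filter above 1 normalized cpm in 3 libraries, 1538 genes were called lower. With plain library sizes Jak2 (0.13), Stat6 (0.085) and Socs1 (0.043) changed sign, Socs2 was at -0.81, 1 of the 9 was lower, and 1864 genes were higher and 495 lower. After epithelial scaling Jak1 (-1.31) and Tyk2 (-1.04) were called, Stat3 was at -0.26, 4 of the 9 were lower, and 628 genes were higher and 2686 lower. The share of higher genes among calls was thus 79.0% and 18.9% under these scalings, against 59.3% in the main fit and 51.0% without the filter. Same-numbered tumors and glands did not deviate together (r -0.64, 0.15 and -0.73), so the numbers pair no samples. With a replicate block on tumors 1 to 3 and glands 1 to 3, Socs2 (-1.30, adjusted p = 0.133) and Cish (-1.86, adjusted p = 0.0795) were not called, 0 of the 9 were lower, 350 genes were higher and 179 lower (limma), with fewer libraries in that fit. Leaving out 1 library at a time, Socs1 ran from -0.60 to 0.084, with the sign turned without gland 1, and the log2 ratio of Tyk2 to Jak1 from 0.15 to 0.48, passing only without gland 2. That of Jak2 to Jak1 passed when averaged by mouse (0.49). The median of the ligand list was 0.61, and 0.22 with the filter. After epithelial scaling they were 0.36 for ligands, -0.99 for receptors, -1.62 for other JAKs and STATs (against -0.99), -0.64 for other inhibitors (against -0.03), 0.45 for STAT3 targets and -1.06 for STAT6 targets. Leaving out 1 gland, medians ran from -0.40 to -0.25 for receptors, from 0.73 to 1.29 for STAT3 targets, from -0.15 to 0.047 for other inhibitors and from -0.86 to -0.10 for STAT6 targets (-0.10 without gland 3, against -0.54). With the exons of all GENCODE transcripts, added after the values were seen, the mean share of Socs3 in the SOCS sum was 64.1% in the tumors and 12.7% in the glands, against 46.5% and 6.60%. Except where the setting uses fewer genes or libraries, the cause was not tested. Only 3 glands set the gland spread, and 3 reads, the limit of a count of 0, amounted to at most 0.683 normalized cpm.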
